A study of Homo sapiens with 4 samples.

Results

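The genes described here are 3 FOXO transcription factors, FOXO1, FOXO3 and FOXO4, and 7 genes known as FOXO targets, RBL2, CCNG2, TXNIP, CITED2, IGFBP1, KLF6 and BCL6. They were taken from the deposited count table by gene name, 10 of 58735 genes, and all 10 had enough counts to be tested. RNA was sequenced from Hey-A8, an established human ovarian cancer cell line, in 2 libraries of cells labelled shCON (a negative control hairpin) and 2 of cells labelled shSPTLC2 (knockdown of SPTLC2). SPTLC2 encodes a subunit of serine palmitoyltransferase, the enzyme that opens sphingolipid synthesis, and the series title ties it to the AKT pathway. The labels disagree on the model: the design text speaks of stable knockdown, whereas the treatment text speaks of hairpin plasmids against ZDHHC15 given by transient transfection and a harvest at 36 h. Neither the number of hairpins and clones nor separate cultures for the replicates are given, so every p-value measures only the spread between these libraries, which may be technical.

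FOXO factors are forkhead proteins that switch on genes for cell cycle arrest, stress defence, autophagy and the fasting response. When growth factors activate PI3K and AKT, AKT phosphorylates FOXO proteins, adaptor proteins of the YWHA family hold them in the cytoplasm, and their targets are switched off. The control therefore acts mainly on the FOXO protein, so a FOXO transcript level is not a measure of FOXO activity. RBL2 and CCNG2 are arrest genes of this programme, IGFBP1 is a classic insulin-repressed liver gene, and TXNIP, CITED2, KLF6 and BCL6 respond to several other inputs besides FOXO.

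RefSeq (build GRCh38.p14) gave promoter windows for 9 of the 10 genes, IGFBP1 not among them, in 17 windows of 250 bases before to 50 after a transcript start. Short motifs were searched on both strands, because they are textbook elements of these genes: the FOXO core GTAAACA, the insulin response element CAAAACAA and the E-box CACGTG, on which carbohydrate response elements are built. The FOXO core was present in windows of 2 genes, TXNIP, where it began 124 bases before the start, and FOXO4, where it began 23 bases after it. These were 2 of the 17 windows, against 3.42% of all 35116 promoter windows. The shorter TAAACA, which the longer core contains, was also present in RBL2 and FOXO3, giving 4 genes and 5 of the 17 windows, against 12.3% of all windows. CACGTG was present in CCNG2, CITED2 and KLF6, in 3 of the 17 windows (7.26% of all windows). CAAAACAA was present in none (0) of the 17 windows (1.68% of all windows). IGFBP1, the insulin-repressed gene, had no window, so this search did not cover it. A match of letters is a description of the window and not a bound site. The 250 bases before the start are shown for the called target genes that hold a match, 5′ to 3′ on the gene's strand, with each TAAACA match and each CACGTG match in capitals, on either strand, and the leading G of the full core in TXNIP too (TGTTTA is the reverse complement of the shorter core).
TXNIP (chr1:145996580-145996829, minus strand): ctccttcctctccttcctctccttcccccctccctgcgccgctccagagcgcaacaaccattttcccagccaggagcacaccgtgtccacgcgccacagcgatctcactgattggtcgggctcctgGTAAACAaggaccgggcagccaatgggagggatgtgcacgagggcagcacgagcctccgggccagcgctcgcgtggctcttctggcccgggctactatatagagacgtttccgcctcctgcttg
RBL2 (chr16:53434221-53434470, plus strand): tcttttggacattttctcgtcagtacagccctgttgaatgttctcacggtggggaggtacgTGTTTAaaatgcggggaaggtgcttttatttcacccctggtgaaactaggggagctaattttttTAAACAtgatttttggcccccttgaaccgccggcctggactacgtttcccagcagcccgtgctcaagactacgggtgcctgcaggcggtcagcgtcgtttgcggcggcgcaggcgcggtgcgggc
CCNG2 (chr4:77156957-77157206, plus strand): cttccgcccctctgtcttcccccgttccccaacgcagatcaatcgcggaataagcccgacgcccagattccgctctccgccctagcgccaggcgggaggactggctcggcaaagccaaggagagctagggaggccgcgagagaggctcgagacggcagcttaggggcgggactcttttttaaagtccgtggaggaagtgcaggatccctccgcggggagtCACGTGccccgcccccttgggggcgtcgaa
CITED2 (chr6:139374649-139374898, minus strand): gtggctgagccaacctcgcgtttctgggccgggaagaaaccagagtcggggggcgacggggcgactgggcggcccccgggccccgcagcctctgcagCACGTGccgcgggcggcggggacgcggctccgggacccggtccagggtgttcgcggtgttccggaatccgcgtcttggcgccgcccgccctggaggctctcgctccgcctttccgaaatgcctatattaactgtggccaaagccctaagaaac
KLF6 (chr10:3785210-3785459, minus strand): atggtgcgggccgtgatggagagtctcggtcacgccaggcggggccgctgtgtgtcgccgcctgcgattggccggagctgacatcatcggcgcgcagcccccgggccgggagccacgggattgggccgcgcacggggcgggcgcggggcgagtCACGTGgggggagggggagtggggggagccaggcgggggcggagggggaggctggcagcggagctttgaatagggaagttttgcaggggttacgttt
Of these 5 genes, TXNIP, CITED2 and KLF6 were lower and RBL2 and CCNG2 higher in shSPTLC2. Genes with the FOXO letters and genes with the exact CACGTG were thus each found in both directions.

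The libraries held between 14464784 and 15084966 counts, and 3 counts, the limit that a count of 0 allows, equalled 0.195 to 0.206 CPM (counts scaled to library size after TMM normalisation). SPTLC2 had 871 and 884 counts in shCON and 587 and 662 in shSPTLC2, a log2 fold change of -0.52 ± 0.12 (SE; edgeR adjusted p = 0.00627), a call that was lost when either shSPTLC2 replicate 1 (adjusted p = 0.134) or replicate 2 (0.0519) was left out. ZDHHC15 had 0 counts in all 4 libraries. The keratin KRT8 (1189 to 1269 CPM) and the Mullerian factor PAX8 (272.9 and 294.3 in shCON, 494.4 and 443.7 in shSPTLC2) were present, whereas CDH1 was at 0, MUC16 at 0 or 1 count and EPCAM at 3 to 10 counts. Of 11 markers of immune cells, endothelium and fibroblasts, CD3E, DCN and LUM were at 0 in every library and PTPRC at 0 to 2 counts. Their summed level was 67.4 and 64.7 CPM in shCON and 120.3 and 141.3 in shSPTLC2, mostly the cadherin gene CDH5 (57.2 and 55.2, then 108.7 and 130.3). Of the 5 markers with enough counts to be tested, CDH5 and COL1A1 (23 and 34 counts, then 92 and 76) were called higher and PECAM1 (31 and 27 counts, then 6 and 12) lower, with a median log2 fold change of -0.30. Genes of the mitochondrial genome took 5.46 and 6.39% of counts in shCON and 10.1 and 8.56% in shSPTLC2. The part of either shift in the results was not tested. With the mitochondrial genes left out 2 of the 10 genes were called higher and 5 lower, as with them. That fit only removes the rows of those genes, so it cannot show what part the shift has. In bulk RNA, fewer cells of a kind and less RNA per cell cannot be told apart.

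The FOXO-related genes went in both directions. RBL2 and CCNG2 rose in shSPTLC2, FOXO3, TXNIP, CITED2, IGFBP1 and KLF6 fell, and FOXO1, FOXO4 and BCL6 were not called. Of all 15313 genes tested, 19.4% were called by edgeR at an adjusted p under 0.05 (10.4% higher and 9.00% lower), against 7 of these 10 genes, which were put together with earlier results of these data known. The split over all genes, 1593 higher and 1378 lower, was 1330 and 1659 with a correction for GC content and 1927 and 1032 with library totals in place of TMM. The median log2 fold change of the 10 genes was -0.30, against 0.00 over all tested genes. The shCON and shSPTLC2 libraries did not overlap in CPM for 9 of the 10, FOXO4 being the exception, against 61.5% of all tested genes. The number called was 2 higher and 5 lower with all libraries, and 1 and 3 without shSPTLC2 replicate 1 as well as without shSPTLC2 replicate 2. TXNIP, CITED2 and IGFBP1 were called whichever library was left out, and the other 4 were not.

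**Figure D1:**
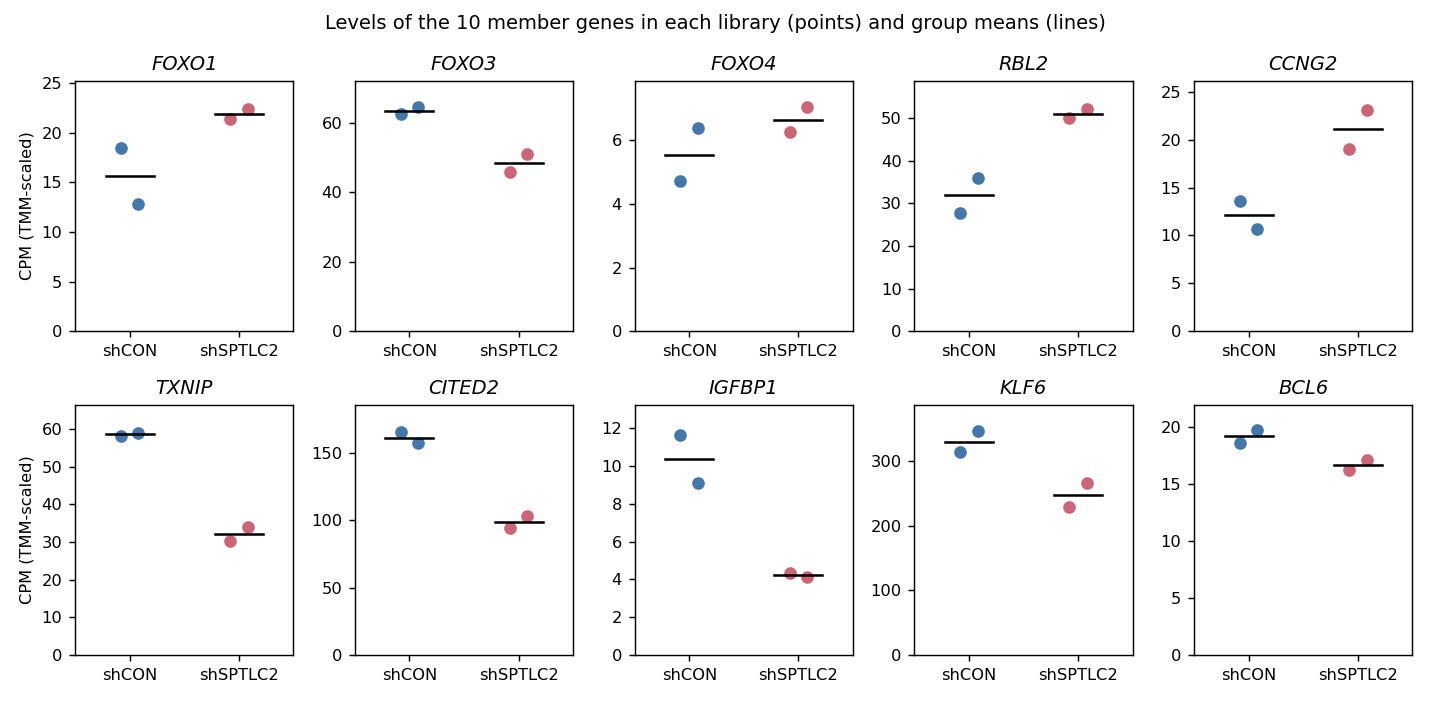
Level of each of the 10 genes as TMM-scaled CPM (vertical axes, from 0) in the 2 shCON and 2 shSPTLC2 libraries; points are libraries and lines are group means. The shSPTLC2 points lie above the shCON points for RBL2 and CCNG2 and below them for TXNIP, CITED2, IGFBP1, KLF6 and FOXO3, while those of FOXO4 overlap.

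FOXO3 was the most abundant of the FOXO transcripts and the one that fell. FOXO3 (ENSG00000118689, hg38 chr6:108559835-108684774) had 62.5 and 64.5 CPM in shCON and 45.7 and 51.1 in shSPTLC2. Both shSPTLC2 libraries were lower than both shCON libraries, with a log2 fold change of -0.39 ± 0.12 (SE; edgeR adjusted p = 0.0286). FOXO3 lost its call when shSPTLC2 replicate 1 (-0.31, adjusted p = 0.307) or replicate 2 (-0.48, 0.103) was left out, and with library totals in place of TMM (-0.34, 0.0576). Over the count-based alternatives its adjusted p ran from 0.00824 to 0.307. FOXO3B, a FOXO3-like copy that could share reads, had only 26 and 29 counts in shCON and 24 and 19 in shSPTLC2.

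FOXO1 stood just outside the threshold, in the opposite direction. FOXO1 (ENSG00000150907, chr13:40469953-40666597) had 18.4 and 12.8 CPM in shCON and 21.4 and 22.4 in shSPTLC2. The groups did not overlap, but the shCON libraries were far apart, at 273 and 186 counts. That pair differed by more than counting error (exact binomial test of the reads of those 2 libraries, adjusted p = 6.2e-04 over 20 such pairs), while 314 and 344 counts in shSPTLC2 did not (adjusted p = 0.621). The log2 fold change was 0.49 ± 0.17 (edgeR adjusted p = 0.0538). It was 0.77 without shCON replicate 1 (adjusted p = 2.2e-04) and 0.24 without shCON replicate 2 (0.329). FOXO1 was called with the replicate number as a block (0.51, adjusted p = 0.0177), with the GC-content correction (0.52, 0.0439) and with library totals (0.54, 0.0334). It was not called by DESeq2 (0.48, adjusted p = 0.119) or by edgeR with DESeq2 size factors (0.48, 0.0559). Nor was it called without shSPTLC2 replicate 1 (0.52) or replicate 2 (0.45).

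FOXO4 and FOXO6 were scarce. FOXO4 (ENSG00000184481, chrX:71096197-71103535) had 4.72 and 6.38 CPM in shCON and 6.26 and 7.04 in shSPTLC2, so the groups overlapped. Its log2 fold change was 0.26 ± 0.23 (edgeR adjusted p = 0.466), and it was 0.05 without shCON replicate 1 and 0.49 without shCON replicate 2. FOXO6 had 19 and 20 counts in shCON and 13 and 24 in shSPTLC2 (-0.11 ± 0.44, adjusted p = 0.884). FOXO1B had 0 counts in every library.

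Per length, the make-up of the FOXO pool differed between the groups more than its sum. Summed FPKM (fragments scaled by gene length and library size, from the deposited table) of FOXO1, FOXO3 and FOXO4 was 12.44 and 12.17 in shCON and 11.03 and 12.16 in shSPTLC2. FOXO3 made up 65.2 and 68.2% of that sum in shCON and 53.0 and 54.0% in shSPTLC2. FOXO1 made up 23.8 and 16.7% in shCON and 30.7 and 29.3% in shSPTLC2. The ratio of FOXO3 to FOXO1 was 2.74 and 4.08 in shCON and 1.73 and 1.84 in shSPTLC2, a difference of -0.91 in mean log2 ratio. An exact two-sided permutation test gave p = 0.333 for that difference and also for the summed FPKM, the smallest that 2 libraries against 2 allow. The test therefore cannot set the change in make-up above that in the sum.

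**Figure D2:**
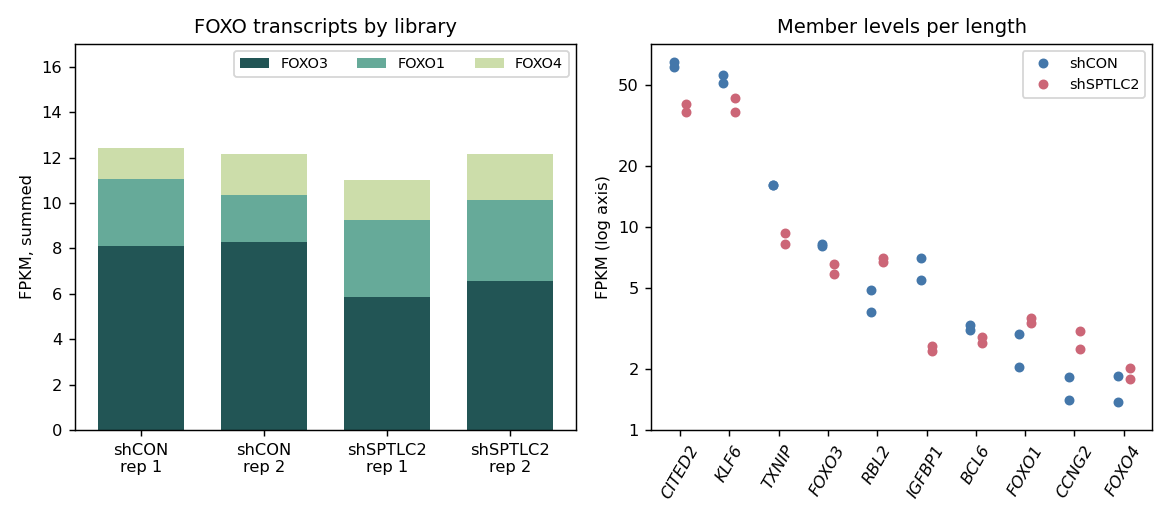
Left, FPKM of FOXO3, FOXO1 and FOXO4 stacked for each library; right, FPKM of the 10 genes in each library on a log axis, ordered by the mean over all libraries. FOXO3 is a smaller part of the bar in the shSPTLC2 libraries (53.0 and 54.0%) than in the shCON libraries (65.2 and 68.2%), and CITED2 and KLF6 lie above the other genes.

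The arrest genes RBL2 and CCNG2 rose. RBL2 encodes a pocket protein of the retinoblastoma family that holds E2F target genes off in resting cells. RBL2 (ENSG00000103479, chr16:53433977-53491649) had 27.8 and 36.0 CPM in shCON and 49.99 and 52.13 in shSPTLC2. Both shSPTLC2 libraries were higher, a 1.602-fold rise (log2 fold change 0.68 ± 0.14, edgeR adjusted p = 0.00330), and 9.31% of tested genes had a larger log2 fold change. The shCON pair, 412 and 524 counts, differed by more than counting error (exact binomial adjusted p = 5.7e-04). The RBL2 change was 0.50 without shCON replicate 1 and 0.87 without shCON replicate 2, both called, and with shSPTLC2 replicate 1 left out it was 0.71 and not called (adjusted p = 0.0531; range 1.8e-07 to 0.0531 over the count-based alternatives).

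CCNG2 encodes cyclin G2, an unusual cyclin that goes with arrest instead of division. CCNG2 (ENSG00000138764, chr4:77157151-77433388) had 13.6 and 10.6 CPM in shCON and 19.0 and 23.1 in shSPTLC2. The groups did not overlap, and the rise was 1.74-fold (log2 fold change 0.80 ± 0.17, edgeR adjusted p = 0.00433). Neither pair of replicates differed beyond counting error after adjustment (exact binomial adjusted p = 0.0649 in shCON and 0.0569 in shSPTLC2). CCNG2 lost its call when shSPTLC2 replicate 2 was left out (0.65, adjusted p = 0.0908; range 3.5e-06 to 0.0908 over the count-based alternatives).

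TXNIP, CITED2 and IGFBP1 fell. TXNIP encodes a thioredoxin-binding arrestin-like protein that restrains glucose uptake. TXNIP (ENSG00000265972, chr1:145992435-145996600), whose promoter window above holds the FOXO core, had 58.3 and 59.0 CPM in shCON and 30.3 and 34.1 in shSPTLC2. The shCON libraries nearly coincided and both shSPTLC2 libraries were far below them. Its level was 1.82-fold lower (log2 fold change -0.87 ± 0.12, edgeR adjusted p = 2.9e-04), and 3.42% of tested genes had a smaller log2 fold change. Over the 4 fits that leave out a library it ran from -0.96 to -0.78, with a highest adjusted p of 0.0270.

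CITED2 encodes a partner of the coactivators CREBBP and EP300 that limits HIF1A output. CITED2 (ENSG00000164442, chr6:139371807-139374620) had 165.6 and 157.5 CPM in shCON and 94.5 and 103.1 in shSPTLC2. Its groups were well apart, with a 1.63-fold lower level in shSPTLC2 (log2 fold change -0.71 ± 0.11, edgeR adjusted p = 4.4e-04). Leaving out a library gave -0.78 to -0.65, with a highest adjusted p of 0.0405.

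IGFBP1 encodes a secreted protein that binds insulin-like growth factors, and had the largest fold of the 10. IGFBP1 (ENSG00000146678, chr7:45888357-45893668) had 173 and 133 counts in shCON and 64 and 63 in shSPTLC2. These are 11.7 and 9.13 CPM against 4.35 and 4.10 CPM. The lowest shCON value was above the highest shSPTLC2 value by more than the gap within either pair. The level was 2.46-fold lower (log2 fold change -1.30 ± 0.22, edgeR adjusted p = 0.00115), and 1.01% of tested genes had a smaller log2 fold change. Without shCON replicate 1 it was -1.12 and without shCON replicate 2 it was -1.47, and the highest adjusted p without a library was 0.0287.

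KLF6 and BCL6, which encode zinc finger transcription factors, were lower by less. KLF6 (ENSG00000067082, chr10:3775996-3785281) had 314.7 and 346.8 CPM in shCON and 230.0 and 266.7 in shSPTLC2. No library of one group reached into the other, and the log2 fold change was -0.41 ± 0.11 (edgeR adjusted p = 0.0176). At this depth both KLF6 replicate pairs differed beyond counting error (exact binomial adjusted p = 1.7e-05 in shCON and 3.6e-09 in shSPTLC2). KLF6 lost its call when shSPTLC2 replicate 1 (-0.31, adjusted p = 0.303) or replicate 2 (-0.53, 0.0648) was left out, within a range of 5.3e-05 to 0.303 over the count-based alternatives. BCL6, a transcriptional repressor that acts in germinal centre B cells (ENSG00000113916, chr3:187721377-187745727), had 18.5 and 19.8 CPM in shCON and 16.2 and 17.1 in shSPTLC2. The BCL6 groups did not overlap, but its log2 fold change of -0.20 ± 0.14 was not called (edgeR adjusted p = 0.357), and the adjusted p was at least 0.295 in the count-based alternatives.

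**Figure D3:**
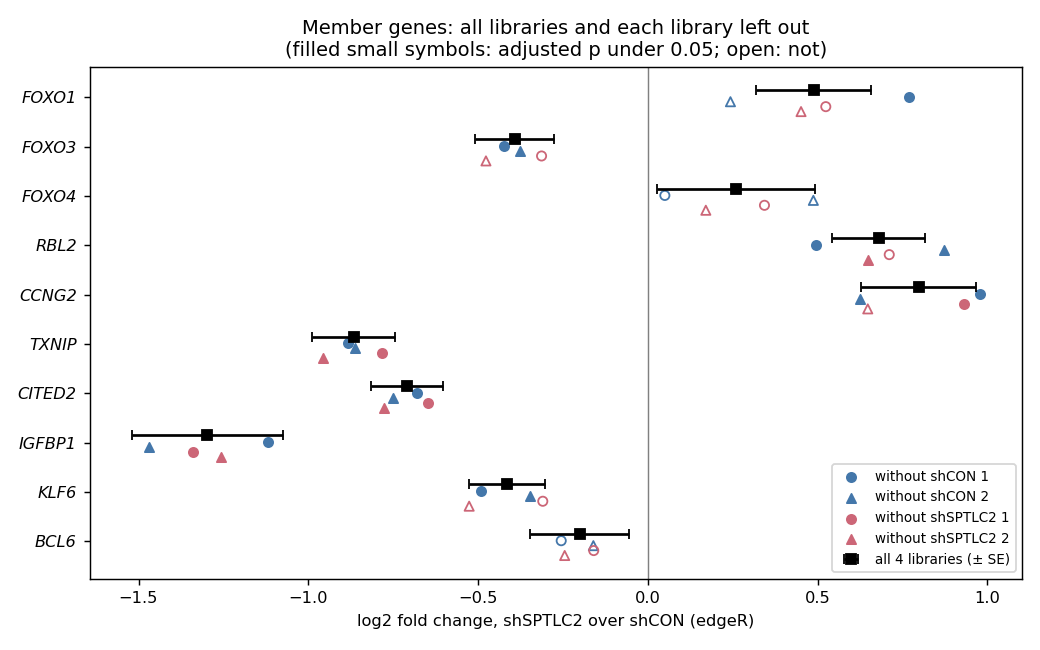
Log2 fold change of shSPTLC2 over shCON (horizontal axis) for the 10 genes, with all 4 libraries (squares, bars are SE) and with each library left out (small symbols, filled where the adjusted p was under 0.05). TXNIP, CITED2 and IGFBP1 have only filled symbols, FOXO1 ranges from 0.24 to 0.77, and BCL6 and FOXO4 have only open ones.

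The order of levels per length changed for several genes. In shCON the mean FPKM fell from CITED2 (63.5 ± 2.67; SD, n = 2) and KLF6 (53.7 ± 3.35) through TXNIP (16.1), FOXO3 (8.20), IGFBP1 (6.27), RBL2 (4.34), BCL6 (3.22) and FOXO1 (2.50) to CCNG2 (1.62 ± 0.292) and FOXO4 (1.605 ± 0.330). Among shCON neighbours in this order the libraries overlapped for CCNG2 and FOXO4 and for no other pair. In shSPTLC2, KLF6 (40.1 ± 4.30) and CITED2 (38.6 ± 2.51) overlapped at the top, followed by TXNIP (8.79), RBL2 (6.91), FOXO3 (6.21) and FOXO1 (3.48). CCNG2 (2.80 ± 0.391) and BCL6 (2.78 ± 0.120) overlapped next, followed by IGFBP1 (2.53 ± 0.0976), whose libraries also overlapped those of CCNG2, and FOXO4 (1.91 ± 0.164). By mean, IGFBP1 stood at place 5 in shCON and place 9 in shSPTLC2, and RBL2 at place 6 and place 4.

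Reads of neighbouring transcripts could touch few of these values. The table holds 15 genes that overlap 6 of the 10 by position, and strand use in the counting is not given in the sources used here. AKTIP overlaps the last 610 bases of RBL2 on the other strand and had 248 and 148 counts in shCON and 214 and 182 in shSPTLC2 (log2 fold change -0.03). The other 14 had at most 11 counts in any library.

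FOXO targets outside the 10 were listed by role and went in both directions. The lists were not split by whether FOXO factors raise or repress a gene, so their medians pool both kinds. Of 58 such genes in 7 lists, 44 were tested, of which 4 rose, 7 fell and 33 were not called. Their median log2 fold change was -0.04, against 0.00 over all tested genes, and 25% were called, against 19.4% of all tested genes. Leaving out shCON replicate 1 gave 9 higher and 8 lower, shCON replicate 2 gave 3 and 13, shSPTLC2 replicate 1 gave 2 and 1, and shSPTLC2 replicate 2 gave 2 and 3. BTG2, CCND2 and GADD45A were called whichever library was left out, and the other 8 were not.

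Among these targets the cell cycle genes held most of the calls, with 4 higher and 3 lower of 10 tested. Of all tested genes 19.4% were called, and this list was chosen with earlier results of these data known. The antiproliferative gene BTG2 rose from 7.5 and 8.2 CPM to 16.3 and 19.9 (log2 fold change 1.21 ± 0.17, edgeR adjusted p = 3.4e-04). CCND2, a cyclin that FOXO factors are known to repress, had 1.6 and 2.7 CPM in shCON and 8.8 and 7.5 in shSPTLC2 (1.92 ± 0.28, adjusted p = 3.8e-04). The far more abundant CCND1 of the same list had 830.7 and 773.2 CPM in shCON and 673.5 and 683.4 in shSPTLC2. It leaned the other way and was not called (-0.24 ± 0.11, edgeR adjusted p = 0.132). The CDK inhibitor gene CDKN1B, a textbook FOXO target, rose from 28.4 and 29.7 CPM to 40.9 and 40.4 (0.48 ± 0.12), and the MYC antagonist gene MXI1 rose from 23.3 and 19.6 to 25.98 and 32.32 (0.44 ± 0.15). The stress gene GADD45A fell from 280.4 and 309.9 CPM to 185.9 and 180.6 (-0.69 ± 0.11). The mitotic cyclin gene CCNB1 (-0.56 ± 0.10) and the antiproliferative gene BTG1 (-0.47 ± 0.12) fell too. CDKN1A, which encodes another CDK inhibitor, had 551.8 and 556.5 CPM in shCON and 439.6 and 458.8 in shSPTLC2. It was not called with all libraries (-0.30 ± 0.11, edgeR adjusted p = 0.0547). CDKN1A was called without shCON replicate 1 (-0.32) or replicate 2 (-0.30), with the GC-content correction and by DESeq2. It was not called without shSPTLC2 replicate 1 (-0.27) or replicate 2 (-0.34). Without shSPTLC2 replicate 1 the edgeR adjusted p was 0.0560 for CCNB1, 0.154 for BTG1, 0.133 for CDKN1B and 0.0934 for MXI1, and without shSPTLC2 replicate 2 it was 0.0595, 0.103, 0.0983 and 0.424. MXI1 also lost its call without shCON replicate 2 (0.147).

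The remaining target lists held 4 calls, all lower, where 19.4% of all tested genes were called. These were 1 of 6 tested antioxidant targets, 1 of 2 metabolic, 1 of 8 receptor and feedback and 1 of 7 immune and vascular targets. The median log2 fold changes of these lists went both ways, at 0.17, -0.26, 0.15 and -0.17 in that order. They were -0.0008 for the cell death and 0.18 for the autophagy targets. SOD2, the mitochondrial superoxide dismutase gene, had 525.5 and 439.9 CPM in shCON and 289.5 and 356.4 in shSPTLC2 (-0.58 ± 0.13, edgeR adjusted p = 0.00503). The SOD2 symbol belongs to 2 rows of the table, of which the one with more counts was used. The pseudokinase gene TRIB1 (-0.69 ± 0.13), the leucine zipper gene TSC22D3 (-0.46 ± 0.13) and the interleukin receptor gene IL7R (-0.53 ± 0.10) fell as well. These calls ended without shSPTLC2 replicate 1, where the edgeR adjusted p was 0.176 for SOD2, 0.0819 for TRIB1, 0.167 for TSC22D3 and 0.0725 for IL7R, and 2 of them without shSPTLC2 replicate 2 (0.168 for TSC22D3 and 0.0563 for IL7R). With all libraries and the main settings, none (0) of the 4 tested cell death targets was called by edgeR, none (0) by DESeq2, and 1, BBC3, had an unadjusted edgeR p under 0.05, where 19.4% of all tested genes were called. BBC3, which encodes a BH3-only killer protein, had 29.1 and 27.9 CPM in shCON and 36.6 and 35.9 in shSPTLC2 (0.35 ± 0.12, edgeR adjusted p = 0.0624). It was called with library totals in place of TMM (0.40, edgeR adjusted p = 0.0353) and with a mean count of at least 50. Over the count-based alternatives (edgeR and DESeq2) its log2 fold change ran from 0.09 to 0.40, with a highest adjusted p of 0.704. BCL2L11 had a log2 fold change of 0.09 ± 0.22. With all libraries, none (0) of the 7 tested autophagy and atrophy targets was called by edgeR or DESeq2 or had an unadjusted edgeR p under 0.05. The most abundant were MAP1LC3B (-0.23 ± 0.13) and ULK1 (0.19 ± 0.12), and each turned on 1 shCON library. MAP1LC3B was -0.43 and called without shCON replicate 2 (edgeR adjusted p = 0.00321) and -0.02 without shCON replicate 1, and ULK1 was 0.32 and called without shCON replicate 1 (0.0382) and 0.06 without shCON replicate 2. The hepatic targets PCK1 and G6PC had 0 counts in all 4 libraries, in contrast to IGFBP1.

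**Figure D4:**
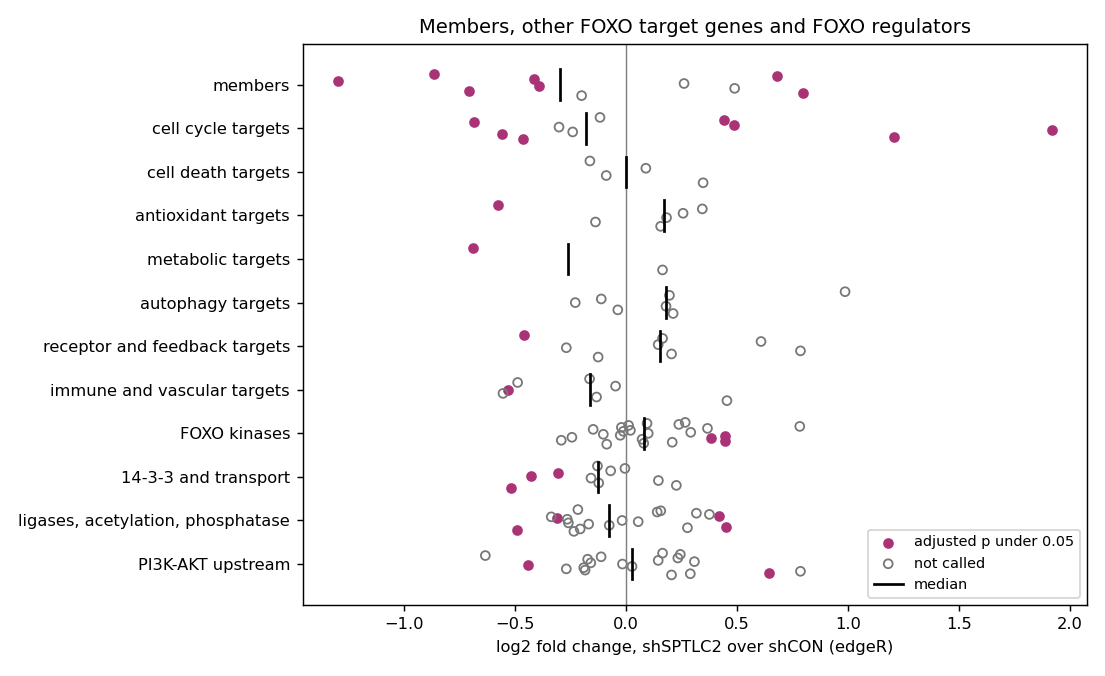
Log2 fold change of shSPTLC2 over shCON for the tested genes of each list (points; filled where the edgeR adjusted p was under 0.05) with the list's median (line). The 10 genes and the cell cycle targets have filled points on both sides of 0, with 2 higher and 5 lower and 4 higher and 3 lower, while the cell death and autophagy targets have none in this fit with all libraries.

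Genes that control FOXO proteins were called at about the share of all genes. Of 72 such genes in 4 lists, 71 were tested, 6 rose, 6 fell and 59 were not called, which is 16.9% called against 19.4% of all tested genes, with a median log2 fold change of -0.01. Leaving out shCON replicate 1 gave 8 higher and 7 lower, leaving out shCON replicate 2 gave 5 and 12, and leaving out shSPTLC2 replicate 1 or replicate 2 gave 1 and 0 each time. Only INPPL1, which encodes a lipid phosphatase acting on the PI3K product, was called whichever library was left out, with 127.9 and 122.0 CPM in shCON and 197.6 and 192.8 in shSPTLC2 (0.64 ± 0.10, edgeR adjusted p = 7.2e-04). Among the kinases, CDK2 (0.44 ± 0.11), IKBKB (0.45 ± 0.13) and CSNK1E (0.38 ± 0.11) rose. SGK1, which encodes a kinase that phosphorylates FOXO3, had 215.6 and 205.7 CPM in shCON and 191.0 and 223.9 in shSPTLC2 and was not called (-0.02 ± 0.11, edgeR adjusted p = 0.910).

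The FOXO adaptor genes YWHAE (-0.43 ± 0.11) and YWHAG (-0.31 ± 0.10) and the nuclear transport gene RAN (-0.52 ± 0.11) fell. YWHAE had 579.8 and 676.3 CPM in shCON and 457.3 and 475.3 in shSPTLC2 (edgeR adjusted p = 0.0151), whereas the most abundant adaptor gene YWHAZ overlapped between groups and was not called (-0.13 ± 0.13). YWHAZ was -0.28 and called without shCON replicate 2 (adjusted p = 0.0408), and 0.02 without shCON replicate 1. Of the genes acting on FOXO stability and acetylation, the ubiquitin ligase gene MDM2 (0.45 ± 0.11) and the deacetylase gene SIRT2 (0.42 ± 0.13) rose, and the acetylase gene CREBBP (-0.49 ± 0.11) and the methylase gene SETD7 (-0.31 ± 0.10) fell. The kinase gene MTOR fell by 0.44 ± 0.11 on the log2 scale. Without shSPTLC2 replicate 1 the edgeR adjusted p of these calls ran from 0.0735 (RAN) through 0.109 (CREBBP), 0.122 (MDM2), 0.128 (IKBKB), 0.158 (CSNK1E), 0.171 (CDK2), 0.194 (MTOR), 0.210 (YWHAE) and 0.233 (SETD7) to 0.350 (SIRT2) and 0.374 (YWHAG). Without shSPTLC2 replicate 2 it ran from 0.0696 (CREBBP) to 0.294 (SETD7), with 0.0846 for MTOR, 0.0902 for CDK2, 0.0907 for SIRT2, 0.107 for RAN, 0.126 for YWHAE, 0.135 for MDM2, 0.185 for YWHAG, 0.224 for IKBKB and 0.245 for CSNK1E. Calls also ended without shCON replicate 1 for CSNK1E (0.107) and IKBKB (0.105), and without shCON replicate 2 for YWHAG (0.0575) and SIRT2 (0.0830).

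Paralogs and partners of the 10 genes were compared last. Of 66 genes, 55 were tested, 7 rose, 6 fell and 42 were not called, which is 23.6% called against 19.4% of all tested genes. Calls among the relatives and partners of KLF6 were 1 higher and 2 lower, of TXNIP 1 and 2, of CITED2 1 and 1, and of CCNG2 2 and 0. Some of these called genes, higher ones among them, are not named below. Leaving out shCON replicate 1 gave 12 higher and 7 lower, shCON replicate 2 gave 6 and 10, each shSPTLC2 replicate gave 2 and 2, and the GC-content correction gave 6 and 10. KLF4, PPP2R5B and BCORL1 were called whichever library was left out. KLF4, a relative of KLF6 in epithelia, fell from 132.6 and 116.8 CPM to 70.6 and 65.5 (-0.87 ± 0.11, edgeR adjusted p = 1.5e-04). BCORL1, a corepressor of the family that BCL6 recruits, rose from 12.54 and 14.96 CPM to 28.2 and 33.8 (1.17 ± 0.15). PPP2R5B, a phosphatase subunit of the family that binds cyclin G proteins, rose from 10.0 and 10.6 CPM to 18.7 and 18.4 (0.85 ± 0.16).

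Close relatives of the 10 genes differed in whether they were called. CCNG1, the paralog of CCNG2, had 201.4 and 155.7 CPM in shCON and 175.7 and 174.2 in shSPTLC2 (-0.03 ± 0.12, edgeR adjusted p = 0.890), and its sign turned with the shCON libraries, at 0.16 without replicate 1 and -0.21 without replicate 2, neither called. RBL1, the paralog of RBL2, rose by 0.40 ± 0.13 (adjusted p = 0.0462), and its call ended without shCON replicate 2 (0.172), shSPTLC2 replicate 1 (0.227) or shSPTLC2 replicate 2 (0.215). ARRDC3, an arrestin relative of TXNIP, had 26.2 and 22.5 CPM in shCON and 14.3 and 19.8 in shSPTLC2 (-0.51 ± 0.17, adjusted p = 0.0391), and was not called without shCON replicate 1 (0.0557) or shSPTLC2 replicate 1 (0.409). ARRDC4, another relative and a glucose-responsive gene like TXNIP, had 0 counts in every library. TXN, the thioredoxin that TXNIP binds, fell by 0.42 ± 0.11, a call that ended without shSPTLC2 replicate 1 (0.171) or replicate 2 (0.174). IGFBP3 had 427.2 and 416.2 CPM in shCON and 337.7 and 266.3 in shSPTLC2 (-0.48 ± 0.12, adjusted p = 0.0115), and was not called without shSPTLC2 replicate 2 (0.249), while IGFBP4, more abundant per length, was not called with all libraries (-0.25 ± 0.12) but was without shCON replicate 2 (-0.37, 0.00413) and with the GC-content correction (-0.46). CITED4, the relative of CITED2, had 104.3 and 67.1 CPM in shCON and 62.8 and 64.3 in shSPTLC2 and was not called with all libraries (-0.43 ± 0.18, adjusted p = 0.115). CITED4 was called without shCON replicate 2 (-0.72, edgeR adjusted p = 1.1e-07) and with the GC-content correction (-0.88), and was -0.09 without shCON replicate 1 (0.669). Whether the change of a gene differed from that of its relative was not tested.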

How the data were processed

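RNA of 4 Hey-A8 libraries was analysed, 2 shCON and 2 shSPTLC2, grouped by their titles. Values in the deposited count table are raw counts for each Ensembl gene, and the deposited FPKM table holds FPKM equal to count over gene length and a library factor, checked on every value. Per the submitters' processing notes, HISAT2, StringTie, SAMtools and the hg38 build were used. The counting program is not given in the sources used here.

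Counts were tested in R 4.3.3 with edgeR 4.0.16: filterByExpr (minimum count 10, minimum total 15), TMM, a robust quasi-likelihood F test without covariates, and Benjamini-Hochberg adjustment over all 15313 tested genes, with calls at an adjusted p under 0.05. A positive log2 fold change means higher in shSPTLC2, and its SE was derived from the F statistic. The common biological coefficient of variation was 10.1%. DESeq2 1.42.0 and limma 3.58.1 (on log2(FPKM + 1) and log2(FPKM + 0.1), mean FPKM of at least 0.5) served as alternatives. The code was tested on simulated data.

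The 10 genes and all lists were chosen with earlier results of these data known. The naming rule took the 10 genes, SPTLC2, ZDHHC15, FOXO relatives, overlapping genes and, in each list, up to 10 called genes and up to 4 others by FPKM. It was not followed in full for the paralog and partner lists, where some called genes are not named. FOXO protein sequences were not analysed here. Intervals and floors cover counting error only.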

Additional observations from a re-analysis of the deposited data

How the results depend on the processing

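All 10 genes kept the sign of their log2 fold change under every alternative run, and the limits lie in the threshold. With limma on log2(FPKM + 0.1), 299 genes were called higher and 231 lower over the whole table, 0 and 3 of the 10 (TXNIP, CITED2 and IGFBP1), 1 and 3 other FOXO targets, 1 and 1 regulators and 2 and 1 paralogs and partners. With limma on log2(FPKM + 1) these were 238 and 179, 0 and 3, 1 and 1, 1 and 0, and 2 and 1. Without a filter on low FPKM limma called 0 and 0 in each, with 4777 of 30392 genes at an unadjusted p under 0.05 and more genes to adjust over, whereas DESeq2 called 2149 genes in all. Calls lost in limma were, for log2(FPKM + 0.1), log2(FPKM + 1) and the latter without a filter, FOXO3 (-0.40, -0.35, -0.35), RBL2 (0.67, 0.57, 0.57), CCNG2 (0.76, 0.54, 0.54), KLF6 (-0.42, -0.42, -0.42) and SPTLC2 (-0.52, -0.45, -0.45), and without a filter TXNIP (-0.81), CITED2 (-0.71) and IGFBP1 (-1.03). FOXO3 was not called with library totals (-0.34). FOXO1 became called with the replicate block (0.51), with the replicate block and GC-content correction together (0.54), with the GC-content correction (0.52), library totals (0.54), a mean count of at least 50 (0.50) and no low-count filter (0.48). The cause of these changes was not tested. DESeq2 called 3 paralogs and partners higher, and 10 were lower with the GC-content correction and with it and the replicate block together. The FOXO core was in 4 genes' windows as TAAACA and in 2 as GTAAACA.

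Leaving out each library in turn gave 413 to 1977 genes called higher and 227 to 2050 lower, of the 10 genes 1 to 3 and 3 to 5, of other FOXO targets 2 to 9 and 1 to 13, of regulators 1 to 8 and 0 to 12, and of paralogs and partners 2 to 12 and 2 to 10. The log2 fold change ran from 0.24 to 0.77 for FOXO1, -0.48 to -0.31 for FOXO3, 0.50 to 0.87 for RBL2, 0.62 to 0.98 for CCNG2, -0.53 to -0.31 for KLF6 and -0.58 to -0.47 for SPTLC2. The lone library of a group is then assumed to vary like the others. The labels do not say whether libraries with the same replicate number share a culture or day. Their deviations had a correlation of -0.01, which does not settle it with 2 libraries per group. The replicate block changed the call of FOXO1 alone among the 10 genes, with 3307 calls in all against 2971. For genes of the lists, 2485 comparisons with an alternative kept their side of the threshold, 196 lost it and 66 gained it. By CPM instead of FPKM, 7 of the 10 genes changed place in the order of levels.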
